A study of Ficus obtusifolia with 4 samples.

Results

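The cuticle, wax and lipid transfer transcripts of *Ficus obtusifolia* flowers were taken as those whose protein description contained any of 10 words or phrases for lipid transfer proteins, 3-ketoacyl-CoA synthases, GDSL esterase/lipases, ECERIFERUM proteins, fatty acyl-CoA reductases, cutin or wax. They numbered 98 of 54550 transcripts. Of the 10 phrases, 3 matched no description, and no ECERIFERUM transcript was found under that name. The 98 comprised 53 GDSL esterase/lipases, 27 lipid transfer proteins, 8 3-ketoacyl-CoA synthases, 8 fatty acyl-CoA reductases and 2 WAX2-like proteins. The words use no measured value, although they were chosen with earlier results of these data known. Locus numbers identify the transcripts, and names come from the best protein match, which lies in another species.

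RNA of fig flowers was sequenced in 4 libraries, 1 for each flower type and stage. Gall flowers are the flowers of the inner ring, where the wasp lays its eggs, and seed flowers those of the outer ring. They were told apart by position in the syconium, the closed inflorescence of the fig, and not by genotype or by inspection for eggs. The libraries were pollinated gall flowers, pollinated seed flowers, receptive gall flowers and receptive seed flowers. Pollinated syconia were taken 24 hours after 1 foundress, a female of the pollinating wasp *Pegoscapus hoffmeyerii*, had been introduced, and receptive syconia before any foundress was introduced. All syconia came from 1 tree and had been bagged against other wasps, and each library pooled flowers of several syconia. Pollinated gall flowers therefore differ from pollinated seed flowers in position and in the eggs, and pollination and egg laying cannot be told apart within gall flowers.

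The plant cuticle is a layer of cutin, a polyester of hydroxylated fatty acids, filled and covered with waxes, and it is made by epidermal cells. In the endoplasmic reticulum, fatty acids are lengthened by an elongase whose condensing enzyme is 3-ketoacyl-CoA synthase. The very-long-chain products become alkanes, in Arabidopsis through CER1 and WAX2 (CER3), or primary alcohols, through fatty acyl-CoA reductases. Precursors are exported by ABC transporters and have been proposed to be carried through the wall by lipid transfer proteins, small secreted proteins that bind lipids. In tomato a GDSL esterase/lipase joins cutin monomers outside the cell, although the GDSL family is large and most of its members have other or unknown substrates. The flowers' epidermis, including the style and stigma, is the surface that pollen and the ovipositing wasp meet.

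Libraries held 58969477 mapped reads in gall and 22141107 in seed flowers when pollinated, and 51063005 in gall and 11584069 in seed flowers when receptive. The value used is the RPKM, the reads of a transcript scaled to its length in kilobases and to the mapped reads of the library, and sums over transcripts are given as RPM, the same without the length. A count of 3 reads on a transcript of 1 kb equals an RPKM of 0.0509, 0.135, 0.0588 and 0.259 in that order of libraries, so receptive seed flowers had the coarsest resolution. Reads mapped to more than 1 place made up at most 0.0794% of the members' reads in any library. With 1 library per flower type and stage, the spread between samples is unknown. A transcript is called higher or lower here when its RPKM ratio was at least 2 in either direction and 1 or more libraries had an RPKM above 20. The 95% intervals of ratios are exact conditional binomial intervals that cover counting error only, and both reads of a pair may have been counted, which makes them too narrow. Because flowers are mixed tissue, fewer cells of a type and less RNA per cell cannot be told apart.

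The members together took 4000 RPM in pollinated gall, 3616 in pollinated seed, 5154 in receptive gall, and 3002 in the receptive seed library. Their share was thus largest in receptive gall and smallest in receptive seed flowers. An RPKM above 20 was reached by 35 of the 98 (35.7%), against 19.1% of all transcripts. They were 23 GDSL esterase/lipases, 8 lipid transfer proteins, both WAX2-like proteins and 2 3-ketoacyl-CoA synthases. Of the 98, 69 had reads in every library, and 14 never reached an RPKM of 1. Of the 35, 16 were highest in receptive gall, 7 in pollinated seed, 6 in pollinated gall and 6 in receptive seed flowers. The lowest value fell in receptive seed flowers for 17 of the 35 and in receptive gall flowers for 3.

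**Figure D1:**
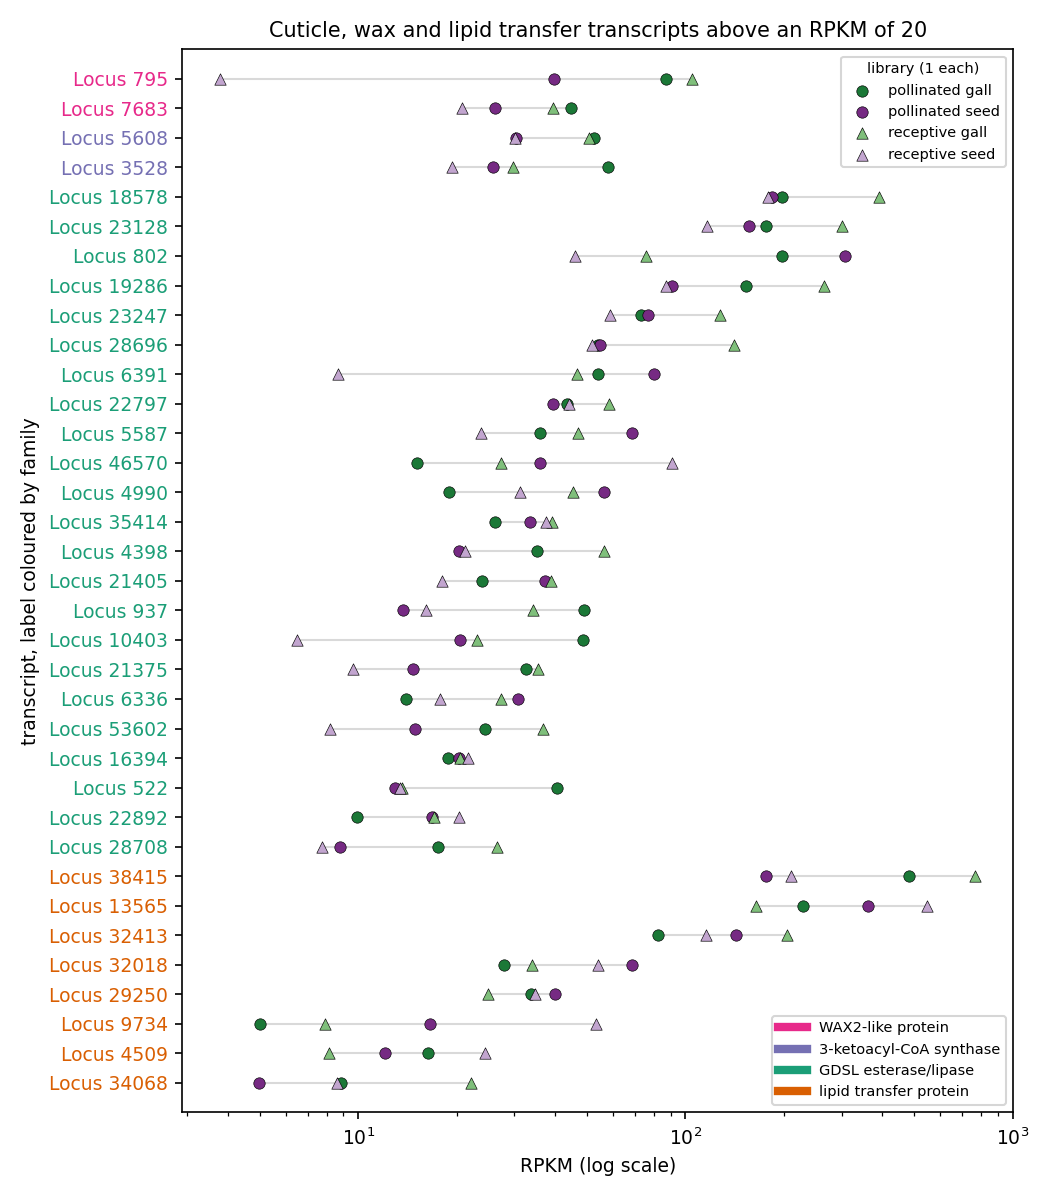
RPKM (log scale) of the 35 cuticle, wax and lipid transfer transcripts above an RPKM of 20, with 1 point for each of the 4 libraries and the label coloured by family; grey lines join the lowest and the highest library, and there are no error bars because each point is 1 library. Receptive gall flowers hold the highest value for 16 transcripts and receptive seed flowers the lowest for 17, and Locus 795, the WAX2-like transcript in the first row, spans the widest range, 104.7 to 3.78.

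Before a wasp had entered, the abundant members were more often called higher than lower in gall against seed flowers, by a margin that narrowed when less abundant members were counted. In receptive gall against receptive seed flowers 16 of the 35 were called higher, where 18.4% of all 10434 transcripts above the minimum were, and 4 were called lower, where 21.7% of all were. The 16 comprised 13 GDSL esterase/lipases, 2 lipid transfer proteins and 1 WAX2-like protein, and the 4 comprised 3 lipid transfer proteins and 1 GDSL fragment. Some passed the minimum only through the library in which they are high. Among the higher ones these were Locus 28708 and Locus 34068, and among the lower ones Locus 9734 and Locus 4509. The shares of all transcripts carry the same filter. The median log2 ratio was 0.93 over the 35 and -0.14 over all transcripts above the minimum. With an RPKM above 5 as the minimum, 17 of 56 members were higher and 10 lower, beside 19.0% and 21.9% of all transcripts of that level, and the median was 0.29. When a coefficient of variation of 0.4 between samples was assumed, edgeR's exact test called 1 of the 35 higher and none lower. In pollinated gall against pollinated seed flowers 7 were called higher, beside 9.01% of all, and 5 lower, beside 5.44% of all. Of the higher ones, Locus 522 passed the minimum only through pollinated gall flowers, the library in which it is high. The median log2 ratio was then 0.10 over the 35, against -0.12 over all. At both stages 5 members were higher in gall flowers (5.58% of all transcripts above the minimum were) and 2 lower (2.95%).

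In receptive flowers the gall to seed ratio moved with transcript length. Over all transcripts above the minimum its median log2 value was 0.21 at 2000 bp or more, -0.27 between 1000 and 2000 bp, -0.72 between 500 and 1000 bp and -0.62 below 500 bp. The 98 members had a median length of 1261.5 bp. For those above the minimum, the median log2 ratio was 1.04 for the 26 of at least 1000 bp and -0.49 for the 9 shorter ones. Among the 26 long members 13 were called higher and 1 lower, where 18.1% and 12.1% of all transcripts of that length were. Among the 9 short ones, which include 7 of the 8 abundant lipid transfer proteins, 3 were higher and 3 lower, where 19.0% and 39.5% of all transcripts under 1000 bp were. What part length plays in the difference between families was not tested.

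**Figure D2:**
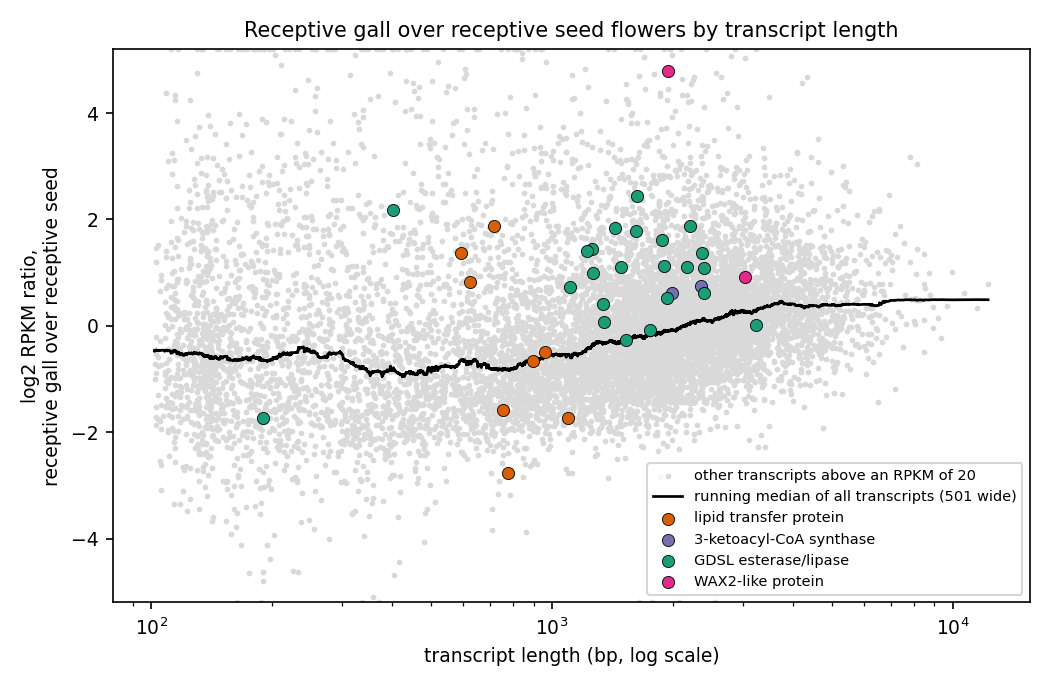
Log2 RPKM ratio of receptive gall over receptive seed flowers against transcript length (bp, log scale) for the 35 members, coloured by family, and for all other transcripts above an RPKM of 20 in grey, those beyond the axis drawn at its edge; the black line is the running median of all. The line is below 0 for short and above 0 for long transcripts, most GDSL esterase/lipases and both WAX2-like proteins lie above it, and lipid transfer proteins lie on both sides.

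The 2 abundant 3-ketoacyl-CoA synthases were higher in gall flowers at both stages, by 1.54-fold to 2.25-fold, while scarcer ones differed in direction. Locus 5608 (2362 bp) had RPKM values of 52.4 in gall and 30.3 in seed flowers when pollinated, and 50.7 in gall and 30.1 in seed flowers when receptive. The gall to seed ratio was 1.73 (1.64 to 1.83) in pollinated and 1.69 (1.57 to 1.82) in receptive flowers, and the stages differed little within either flower type. Locus 3528, annotated to wax biosynthesis and cuticle development, had 58.1, 25.8, 29.6 and 19.3 in the same order. It was lowest in receptive seed flowers and highest in pollinated gall flowers, where it was 2.25-fold (2.11 to 2.40) above pollinated seed flowers and 1.962-fold (1.88 to 2.05) above receptive gall flowers. It was the only 3-ketoacyl-CoA synthase called in any of the 4 comparisons.

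Locus 21599 matched 3-ketoacyl-CoA synthase 1, which in Arabidopsis takes part in wax synthesis, and stayed below the minimum of 20. Its RPKM was 12.5 in pollinated gall, 3.71 in pollinated seed, 10.7 in receptive gall, and 3.29 in the receptive seed library. Gall flowers were higher at both stages, 3.39-fold (3.03 to 3.79) in pollinated and 3.24-fold (2.76 to 3.83) in receptive flowers, while the 2 stages were alike within a flower type. Locus 32457 had 9.48, 11.1, 15.6 and 9.92, and was highest in receptive gall flowers, but at 0.853 times (0.765 to 0.952) the seed level in pollinated gall flowers. Locus 42402 ran against the abundant ones with 1.17, 4.54, 3.03 and 4.79. It was lower in gall flowers at both stages, 0.258 times (0.202 to 0.327) the seed flowers in pollinated and 0.633 times (0.499 to 0.809) in receptive flowers. The remaining 3 transcripts of the family stayed below an RPKM of 1. Over all 8, the RPM was 1.86-fold (1.80 to 1.93) higher in pollinated gall than in pollinated seed flowers and 1.72-fold (1.64 to 1.81) higher in receptive gall than in receptive seed flowers. A further 6 transcripts described as beta-ketoacyl-CoA synthase family proteins fall outside the chosen words. The most abundant of them, Locus 3156, ran the other way in receptive flowers, with 22.8 in gall and 38.6 in seed flowers.

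Among the 35 members above the minimum, the widest difference was that of a WAX2-like transcript. Locus 795 (1944 bp) had RPKM values of 87.4 in gall and 39.5 in seed flowers when pollinated, and 104.7 in gall and 3.78 in seed flowers when receptive. It was high in 3 libraries and low in receptive seed flowers, where it rests on 85 reads. The ratio was 27.7 (22.4 to 34.8) in receptive gall against receptive seed flowers and 2.21 (2.10 to 2.33) in pollinated gall against pollinated seed flowers. Pollinated seed flowers were 10.5-fold (8.42 to 13.2) above receptive seed flowers, and pollinated gall flowers were 0.834 times (0.812 to 0.858) receptive gall flowers. Locus 7683 (3038 bp), the other WAX2-like transcript, had 44.5, 26.2, 39.3 and 20.7 in the same order of libraries. It was higher in gall flowers by 1.70-fold (1.61 to 1.79) in pollinated and 1.90-fold (1.76 to 2.06) in receptive flowers, under the threshold both times. Both carry the terms wax biosynthetic process and cuticle hydrocarbon biosynthetic process, and with Locus 3528 and Locus 21599 they are the 4 members among the 13 transcripts in all with a wax biosynthetic term.

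The fatty acyl-CoA reductases were scarce, and none passed the minimum. Locus 14037, like reductase 2, had an RPKM of 0.814 in pollinated gall, 1.53 in pollinated seed, 2.00 in receptive gall, and 1.35 in the receptive seed library. Pollinated gall flowers were lowest, at 0.406 times (0.316 to 0.519) receptive gall flowers, the highest library. Locus 40470, like reductase 3, had 57 reads in pollinated gall, 2 in pollinated seed, 58 in receptive gall, and 0 in the receptive seed library. Receptive gall flowers were 4.39-fold higher than receptive seed flowers when that 0 is set to 3 reads, and the exact lower limit was 3.45. Locus 53231, a fragment of 164 bp, had 7 reads in receptive seed flowers and at most 4 in any other library.

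The other 5 reductases had reads in pollinated gall flowers alone. They are named after the Drosophila genes CG5065 and CG8306 in their descriptions. The most abundant, Locus 23790, had 430 reads there and 0 in each of the other libraries. With that 0 set to 3 reads it was 53.8-fold higher than pollinated seed flowers, and the exact lower limit was 43.6. The same pattern, 10 or more reads in pollinated gall flowers with 0 in both receptive libraries, held for 13 of the 98 members, beside 19.7% of all transcripts. These were the 5 reductases, all 3 START-related lipid transfer proteins, 2 of 3 glycolipid transfer proteins and 3 other lipid transfer transcripts. The last 3 were Locus 6855, Locus 24447 and Locus 40708. START domains bind sterols and other lipids in animals as well as plants. The 490 transcripts described after wasps, bees or ants, of which 433 had this read pattern, summed to an RPKM of 836 in pollinated gall flowers and to at most 1.52 in any other library. The species of origin of the 13 was not tested, and none of them exceeded an RPKM of 4.06.

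Before pollination most abundant GDSL esterase/lipases were higher in gall than in seed flowers, while many scarcer ones were lower. Afterwards the difference between flower types was small on balance and differed in direction between members. Of the 23 above the minimum, 13 were higher and 1 lower in receptive gall than in receptive seed flowers, with a median log2 ratio of 1.11. In pollinated flowers 4 were higher and 3 lower in gall than in seed flowers, with a median log2 ratio of -0.02. Summed over all 53, the RPM was 2.02-fold (2.00 to 2.05) higher in receptive gall than in receptive seed flowers and 1.03-fold (1.02 to 1.04) higher in pollinated gall than in pollinated seed flowers. Of the 23, 12 had their highest value in receptive gall flowers and 13 their lowest in receptive seed flowers.

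The most abundant of the family, Locus 18578, was described as APG, after an anther-specific protein of Arabidopsis and Brassica. Its RPKM was 197.2 in gall and 183.5 in seed flowers when pollinated, and 389.6 in gall and 178.3 in seed flowers when receptive. Receptive gall flowers stood apart and the other 3 libraries were alike, with ratios of 2.19 (2.11 to 2.26) against receptive seed flowers and of 0.506 (0.498 to 0.515) for pollinated against receptive gall flowers. Locus 28696 repeated this shape with 54.0, 54.7, 141.2 and 51.8. It was 2.73-fold (2.53 to 2.94) higher in receptive gall than in receptive seed flowers, 0.986 times (0.930 to 1.05) pollinated seed flowers in pollinated gall flowers, and, of the 23 above the minimum, the GDSL transcript with the lowest ratio of pollinated to receptive gall flowers, 0.382 (0.368 to 0.397). Locus 23128, with 176.4, 155.9, 301.2 and 116.0, and Locus 19286, with 152.9, 91.1, 266.0 and 87.3, were also highest in receptive gall flowers, at 2.60-fold (2.503 to 2.69) and 3.05-fold (2.91 to 3.19) the receptive seed flowers.

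Some GDSL transcripts were higher in gall flowers at both stages. Locus 10403 was described as EXL3, an extracellular lipase of a group found on pollen grains in Arabidopsis. It had an RPKM of 48.7 in pollinated gall, 20.5 in pollinated seed, 23.1 in receptive gall, and 6.497 in the receptive seed library. Gall exceeded seed flowers 2.38-fold (2.19 to 2.59) in pollinated and 3.56-fold (2.93 to 4.36) in receptive flowers, and pollinated exceeded receptive flowers 2.11-fold (1.99 to 2.23) in gall and 3.15-fold (2.57 to 3.90) in seed flowers. Locus 937 had 49.0, 13.7, 34.3 and 16.1, and was 3.58-fold (3.31 to 3.87) higher in pollinated gall than in pollinated seed flowers, the highest such ratio of the 35. Locus 21375, chosen after its values were seen, had 32.6, 14.7, 35.4 and 9.62. With Locus 795 and the lipid transfer protein precursor described below, these 3 are the 5 members called higher in gall flowers at both stages.

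Others were called at 1 stage only or ran in opposite directions. Locus 522 had RPKM values of 40.6 in gall and 12.9 in seed flowers when pollinated, and 13.6 in gall and 13.4 in seed flowers when receptive. It was high only in pollinated gall flowers, 3.14-fold (2.93 to 3.37) above pollinated seed and 2.99-fold (2.85 to 3.13) above receptive gall flowers. Locus 4990 had 19.0, 56.3, 45.2 and 31.3, and was lowest in pollinated gall flowers, at 0.337 times (0.318 to 0.357) pollinated seed flowers, yet 1.45-fold (1.33 to 1.57) higher in receptive gall than in receptive seed flowers. Locus 6391 had 53.9, 80.2, 46.7 and 8.66. Like Locus 795 it was low in receptive seed flowers, with a ratio of 5.40 (4.62 to 6.35) for receptive gall and of 9.26 (7.91 to 10.9) for pollinated seed flowers against them. Locus 53602, a fragment of 402 bp described as CPRD49, had 24.3, 14.9, 36.8 and 8.16, and was 4.51-fold (3.25 to 6.42) higher in receptive gall than in receptive seed flowers. Of its reads 8.32% mapped to more than 1 place, the highest share of the 35.

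Locus 802 stood out by stage rather than flower type. Its RPKM was 197.0 in pollinated gall, 307.1 in pollinated seed, 75.8 in receptive gall, and 45.8 in the receptive seed library. Both pollinated libraries lay above both receptive ones, 2.60-fold (2.51 to 2.69) in gall and 6.71-fold (6.17 to 7.31) in seed flowers. Locus 802 and Locus 10403 were the only 2 of the 35 called higher after pollination in both flower types (2.31% of all transcripts above the minimum were), and none was called lower in both (2.26%). Locus 46570 was the only GDSL transcript above the minimum called lower in receptive gall than in receptive seed flowers. It had 15.1, 35.9, 27.3 and 90.9. It was lower in gall flowers at both stages, 0.420 times (0.335 to 0.527) and 0.301 times (0.249 to 0.363) the seed flowers, and is a fragment of 190 bp. Transcripts under 500 bp above the minimum had median log2 gall to seed ratios of -0.13 in pollinated and -0.62 in receptive flowers, against -1.25 and -1.73 for Locus 46570, and the part of length was not tested.

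**Figure D3:**
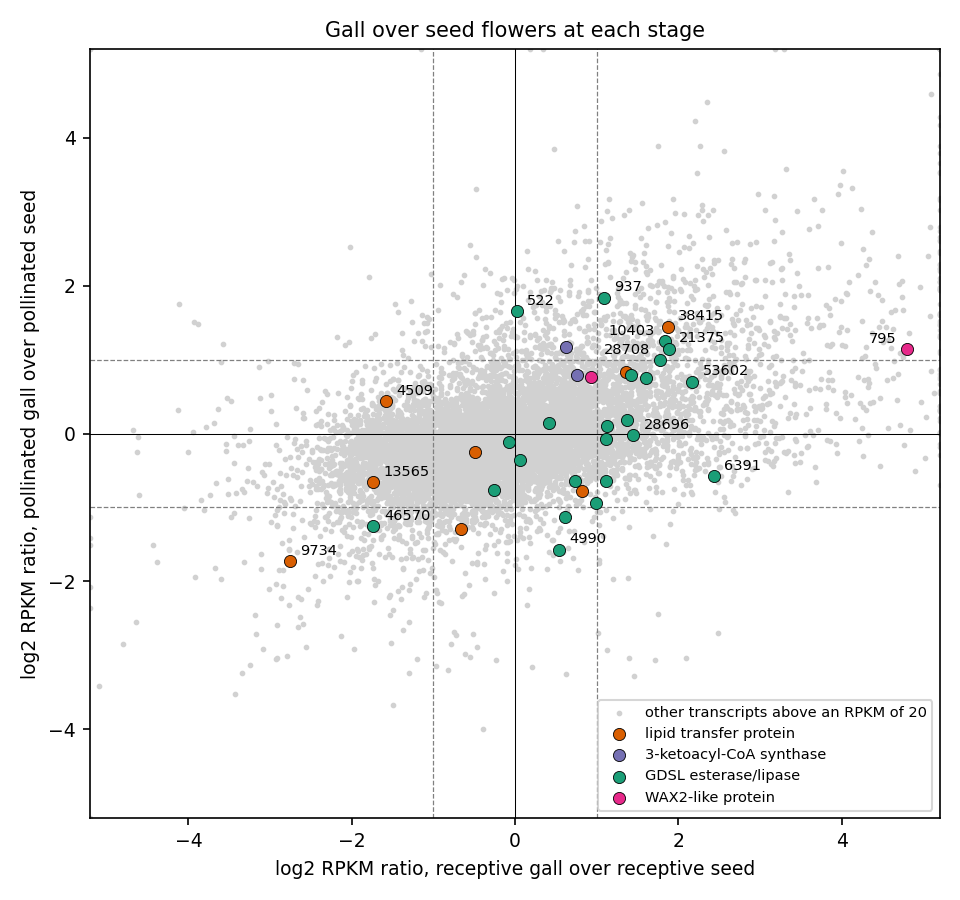
Log2 RPKM ratio of gall over seed flowers in receptive (x axis) and pollinated flowers (y axis) for the 35 members, coloured by family, and for other transcripts above an RPKM of 20 in grey, those beyond the axes drawn at their edge; dashed lines mark ratios of 2 in either direction, and numbers are loci. Of the 35, 16 lie to the right of the right dashed line and 7 above the upper one, Locus 795 lies farthest right, and Locus 9734 is lowest at both stages.

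Lipid transfer proteins were found on both sides of the comparison of flower types. Of the 8 above the minimum, 2 were higher and 3 lower in receptive gall than in receptive seed flowers, and 1 was higher and 2 lower in pollinated gall than in pollinated seed flowers, where 18.4%, 21.7%, 9.01% and 5.44% of all transcripts were, so with 8 transcripts these counts do not set the family apart. The median log2 ratio was -0.58 in receptive and -0.45 in pollinated flowers. The summed reads of all 27 were nearly even, with gall to seed ratios of 0.958 (0.939 to 0.978) in receptive and 1.00 (0.982 to 1.02) in pollinated flowers. With TMM scaling the ratios became 1.12 and 1.14, so the direction of the family sum depends on the scaling. Without the most abundant transcript the ratios were 0.472 in receptive and 0.654 in pollinated flowers. These sums rest on a few transcripts, since Locus 38415 alone gave 58.2% of the family's reads in gall and 15.2% in seed flowers when receptive.

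Locus 38415, a lipid transfer protein precursor of 718 bp, was the most abundant member in both gall libraries. Its RPKM was 481.9 in gall and 176.7 in seed flowers when pollinated, and 769.6 in gall and 210.4 in seed flowers when receptive. Both gall libraries lay above both seed libraries, 2.73-fold (2.62 to 2.84) in pollinated and 3.66-fold (3.49 to 3.84) in receptive flowers. Locus 13565 (1100 bp), the most abundant member in both seed libraries, went the other way with 229.3, 361.5, 163.9 and 547.5. It was 0.634 times (0.618 to 0.651) the seed flowers in pollinated and 0.299 times (0.290 to 0.309) in receptive gall flowers.

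Locus 9734 belongs to the bifunctional inhibitor, lipid transfer and 2S albumin superfamily, in which lipid binders, protease inhibitors and seed storage proteins share 1 fold. Its RPKM was 5.01 in pollinated gall, 16.6 in pollinated seed, 7.88 in receptive gall, and 53.4 in the receptive seed library. It was highest in receptive seed flowers and lower in gall flowers at both stages, 0.302 times (0.252 to 0.360) the seed flowers in pollinated and 0.148 times (0.128 to 0.171) in receptive flowers. Locus 9734 and the GDSL fragment Locus 46570 were the 2 members called lower in gall flowers at both stages. Locus 4509, of the same superfamily, had 16.4, 12.02, 8.15 and 24.4. Its gall to seed ratio was 0.334 (0.280 to 0.3999) in receptive and 1.36 (1.16 to 1.60) in pollinated flowers.

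Among the others, Locus 32413 had RPKM values of 82.7 in gall and 142.3 in seed flowers when pollinated, and 204.4 in gall and 115.9 in seed flowers when receptive. It was 0.404 times (0.387 to 0.422) receptive gall flowers in pollinated gall flowers, and its gall to seed ratio was 0.581 (0.549 to 0.615) in pollinated and 1.76 (1.64 to 1.90) in receptive flowers. Locus 34068, a non-specific lipid transfer protein, had 8.82, 4.96, 22.1 and 8.603, and was highest in receptive gall flowers as well. Locus 32018 had 28.0, 68.4, 33.9 and 53.9, lower in gall flowers at both stages and called at the pollinated stage alone, where the ratio was 0.409 (0.380 to 0.441). The remaining 19 lipid transfer transcripts stayed below the minimum, and Locus 36328, with 4.36, 8.16, 0.879 and 3.65, was the most abundant of these by its mean.

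Between stages, the widest ratios of members were in seed flowers, where more of all transcripts were called as well. The median of the members moved further in gall flowers. In pollinated against receptive gall flowers 4 were called higher, beside 6.45% of all transcripts above the minimum, and 4 lower, beside 5.71%. The higher ones were Locus 522, Locus 802, Locus 10403 and Locus 4509, and the lower ones Locus 28696, Locus 34068, Locus 32413 and Locus 4990. Of these, Locus 522 passed the minimum only through pollinated gall flowers and Locus 34068 only through receptive gall flowers, the libraries in which they are high. Kal's Z-test, which the study used and which compares 2 libraries rather than 2 conditions, gave 8 lower members, beside 6.66% of all. The median log2 ratio was -0.58 over the 35, against 0.03 over all. In pollinated against receptive seed flowers 6 were called higher, beside 13.2% of all, and 3 lower, beside 10.6%. The higher ones were the WAX2-like Locus 795 and 5 GDSL esterase/lipases, and the lower ones were Locus 9734, Locus 46570 and Locus 4509. Locus 9734 and Locus 4509 passed the minimum only through receptive seed flowers, the library in which they are high. The shares of all transcripts carry the same filter. The median log2 ratio was 0.19 over the 35, against 0.01 over all.

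**Figure D4:**
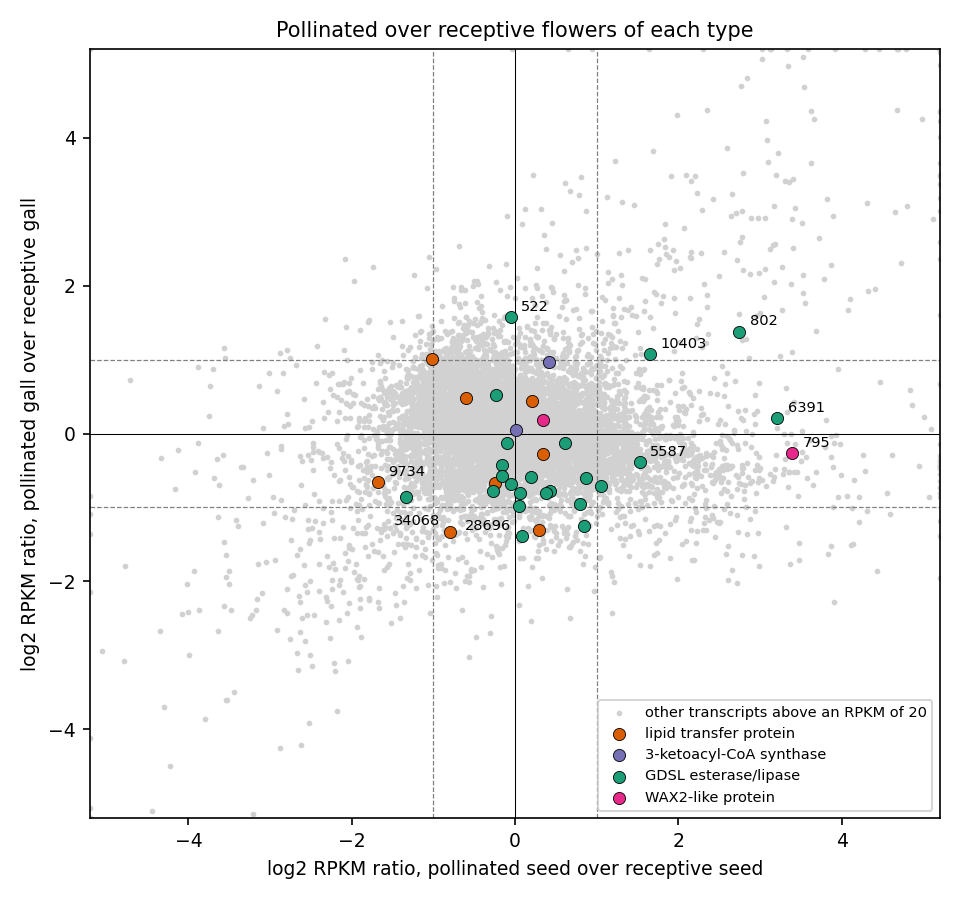
Log2 RPKM ratio of pollinated over receptive flowers in seed flowers (x axis) and gall flowers (y axis) for the 35 members, coloured by family, and for other transcripts above an RPKM of 20 in grey, those beyond the axes drawn at their edge; dashed lines mark ratios of 2 in either direction. Locus 795 and Locus 6391 lie far to the right near the horizontal line, Locus 802 and Locus 10403 lie beyond 2-fold on both axes, and most GDSL esterase/lipases lie below 0 on the gall axis.

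Over the 53 GDSL esterase/lipases the summed RPM was 0.718 times (0.714 to 0.723) receptive gall flowers in pollinated gall flowers and 1.41-fold (1.39 to 1.44) receptive seed flowers in pollinated seed flowers. The 2 WAX2-like transcripts together were 0.945 times (0.925 to 0.965) and 2.23-fold (2.07 to 2.41) in the same 2 comparisons. Lipid transfer proteins were lower after pollination in both flower types, 0.801 times (0.791 to 0.812) in gall and 0.768 times (0.750 to 0.786) in seed flowers, though without the most abundant transcript the gall value was 1.05. The gall and seed libraries of a stage share no reads, so these are separate measurements, and the difference between them was not tested over samples.

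A model of stage and flower type over all 4 libraries was the 1 test that leaves a residual degree of freedom. It takes a stage-dependent difference as noise. With the quasi-likelihood F-test of edgeR, 21491 transcripts and 63 members were fitted, and no member had an adjusted p under 0.05 for gall against seed flowers, as did none of all transcripts (0.0%). At an unadjusted p under 0.05 there were 18 of 63 members (28.6%) and 13.6% of all transcripts. The lowest adjusted p of a member was 0.145, for Locus 38415, with a log2 change of 1.78 (SE 0.36) in gall over seed flowers. For pollinated against receptive flowers no member passed, beside 0.0884% of all transcripts called higher and 0.0465% lower, and 7 members (11.1%) and 5.88% of all had an unadjusted p under 0.05. The lowest adjusted p there was 0.203, for Locus 802, with a log2 change of 2.01 (SE 0.45). The Wald test of DESeq2 on the same model called 8 of 61 members for flower type, 7 higher and 1 lower in gall flowers, beside 4.66% and 0.79% of all transcripts. For stage it called 1 of 63 higher after pollination, Locus 802, and none lower, beside 1.15% and 0.865% of all. The 7 were Locus 795, Locus 38415, Locus 21599, Locus 10403, Locus 21375, Locus 28708 and Locus 937, and the 1 lower was Locus 9734.

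Other cuticle-related transcripts, found by further words in the descriptions, numbered 78, of which 31 passed the minimum. A match of words does not show a role in the cuticle. Of the 78, 12 had 10 or more reads in pollinated gall flowers and 0 in both receptive libraries, beside 19.7% of all transcripts. None of these 12 passed the minimum. In receptive gall against receptive seed flowers 17 of the 31 were called higher and 2 lower, with a median log2 ratio of 1.25, beside 18.4% and 21.7% of all transcripts called. Some of the 17, such as Locus 21658 and Locus 141, passed the minimum only through receptive gall flowers, the library in which they are high. In pollinated gall against pollinated seed flowers 3 were higher and 1 lower, with a median of 0.04, beside 9.01% and 5.44% of all. In pollinated against receptive gall flowers none was higher and 9 were lower, beside 6.45% and 5.71% of all. In pollinated against receptive seed flowers 11 were higher and 1 lower, beside 13.2% and 10.6%. None of the 52 fitted passed an adjusted p of 0.05 for either factor in the edgeR model.

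Long-chain acyl-CoA synthetases, which activate fatty acids for wax and cutin, carried much of this. Of 13 above the minimum 8 were higher and none lower in receptive gall than in receptive seed flowers, where 18.4% and 21.7% of all transcripts were. Locus 28003, matched to long-chain acyl-CoA synthetase 1, had an RPKM of 137.9 in pollinated gall, 137.1 in pollinated seed, 355.1 in receptive gall, and 88.1 in the receptive seed library. It was 4.03-fold (3.75 to 4.34) higher in receptive gall than in receptive seed flowers and 1.01-fold (0.959 to 1.06) in pollinated gall against pollinated seed flowers. Locus 9392, with 28.3, 22.8, 102.8 and 1.06, had a ratio of 96.9 (52.7 to 202) in receptive flowers, resting on 10 reads in receptive seed flowers. Several of the synthetase transcripts are shorter than 1000 bp and share a description, and whether they are pieces of 1 gene was not tested.

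ABCG32, which in Arabidopsis exports cutin precursors, was matched by Locus 648 (4339 bp). It had 46.3 in gall and 33.7 in seed flowers when pollinated, and 143.0 in gall and 5.61 in seed flowers when receptive, a ratio of 25.5 (22.7 to 28.8) in receptive and 1.37 (1.32 to 1.43) in pollinated flowers. HOTHEAD, a protein needed in Arabidopsis to keep floral organs from fusing, was matched by Locus 1309, with 95.4, 116.3, 127.2 and 48.3. Locus 21658, like WSD1, a wax ester synthase, had 6.43, 7.37, 23.4 and 3.28. All 3 were highest in receptive gall and lowest in receptive seed flowers, as was Locus 795. Pollinated gall flowers were 0.324 times receptive gall flowers for Locus 648, 0.274 times for Locus 21658 and 0.751 times for Locus 1309. Acetyl-CoA carboxylase, which makes the malonyl-CoA used in elongation, was matched by Locus 141 (7820 bp), with 17.1, 2.83, 24.5 and 2.73, and was higher in gall flowers at both stages, 6.06-fold (5.53 to 6.65) in pollinated and 9.002-fold (7.93 to 10.3) in receptive flowers. The elongase reductase matched by Locus 3683 was lower in receptive gall flowers, with 39.4 against 87.0 in receptive seed flowers.

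**Figure D5:**
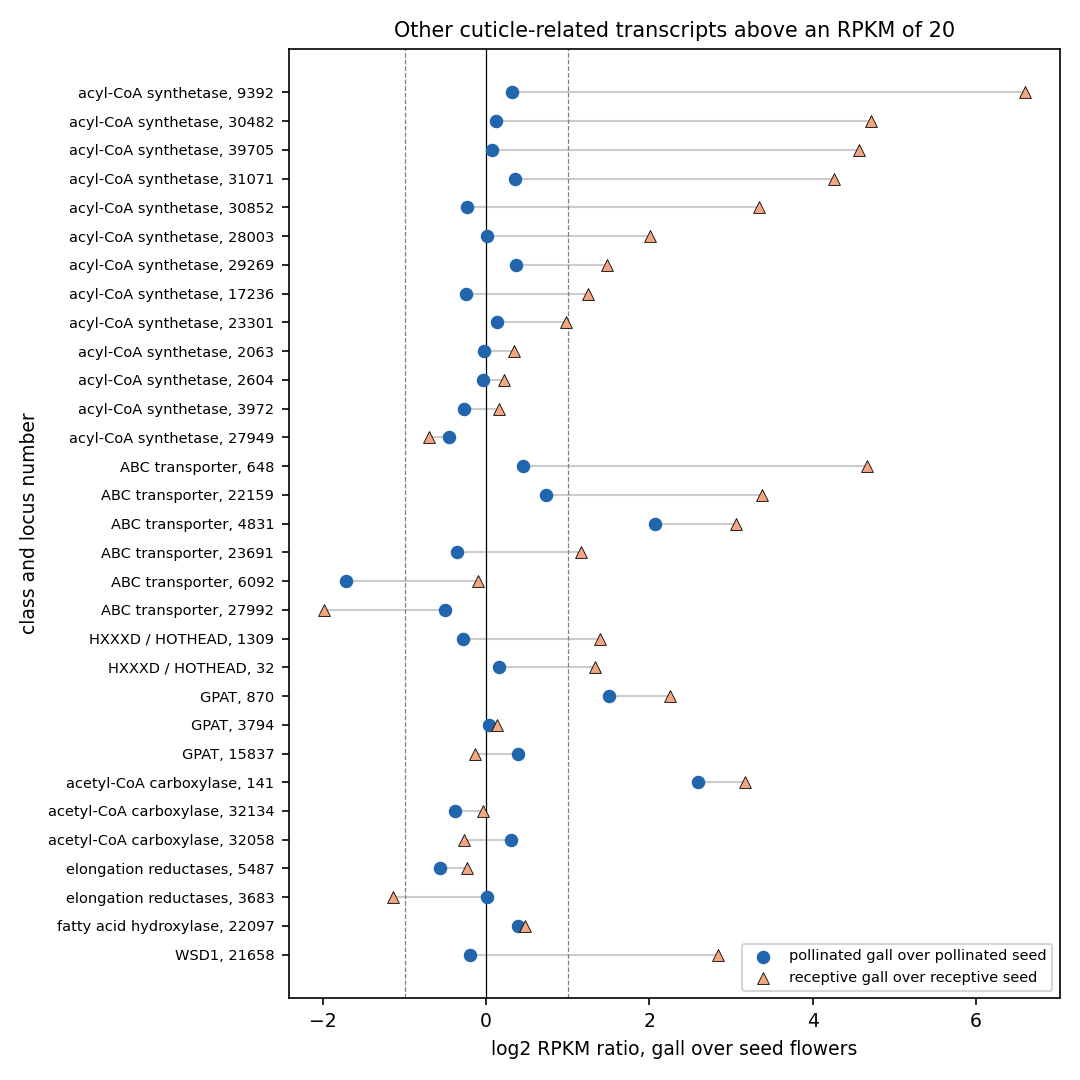
Log2 RPKM ratio of gall over seed flowers for the 31 other cuticle-related transcripts above an RPKM of 20, 1 row each, in pollinated (circles) and receptive flowers (triangles); GPAT is glycerol-3-phosphate acyltransferase, and dashed lines mark ratios of 2 in either direction. Triangles lie at or beyond a ratio of 2 to the right for 17 rows and circles for 3, and Locus 9392 reaches 96.9 in receptive flowers.

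Markers of the epidermis, the tissue that makes the cuticle, were read in the same libraries. All 7 marker transcripts had reads in every library, and their RPKM summed to 284.0 in pollinated gall, 238.9 in pollinated seed, 431.1 in receptive gall, and 220.2 in the receptive seed library. The sum was highest in receptive gall flowers, as were 12 of the 23 abundant GDSL esterase/lipases, Locus 795 and the summed acyl-CoA synthetases. Locus 812, like the epidermal factor GLABRA2, had 35.3, 13.2, 47.3 and 1.92, and Locus 19354, a protodermal factor, had 40.6, 53.4, 155.0 and 79.1. Locus 3675, like the epidermal factor ANTHOCYANINLESS 2, had 21.7, 44.4, 27.2 and 32.3, and Locus 6904, like the meristem layer factor MERISTEM L1, had 6.17, 7.81, 6.93 and 8.79. Both were lower in gall than in seed flowers at both stages. Of the 5 above the minimum, 2 were called higher and none lower in receptive gall than in receptive seed flowers, beside 18.4% and 21.7% of all. The 2 called higher were both like GLABRA2. In pollinated gall against pollinated seed flowers 1 was higher and 1 lower, beside 9.01% and 5.44% of all.

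The 18 carpel and ovule markers summed to 310.1, 553.2, 323.9 and 320.5, so pollinated seed flowers were highest. Of the 7 above the minimum, 4 were higher and 2 lower in receptive gall than in receptive seed flowers, with a median log2 ratio of 1.88. Over all transcripts above the minimum the shares were 18.4% and 21.7%. After pollination 4 were higher and none lower in seed flowers, beside 13.2% and 10.6% of all, with a median of 1.52. The receptive seed sum rests largely on Locus 1705, an AGAMOUS-like transcript, with 148.5 there. The 29 photosynthesis markers summed to 282.0, 372.6, 564.8 and 360.6, highest in receptive gall flowers, and the 19 pollen markers to 1041, 984, 979 and 1052, nearly level. Their part in the results for the members was not tested.

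Relative to the scaling on total mapped reads used above, TMM scaling moved every log2 ratio by 0.23 for gall against seed flowers when receptive and by 0.19 when pollinated, and by -0.02 and 0.02 in the stage comparisons of gall and seed flowers.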

How the data were processed

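RNA was sequenced in 4 libraries of pooled flowers, 1 for each flower type and stage. Per the labels and the study's methods, the authors trimmed paired reads of 100 bp (FastQC 0.10.0 and Trimmomatic 0.22 in the submitters' processing notes), assembled all libraries together with Oases, and mapped each library to the assembly with CLC Genomics Workbench. The deposited table gives for each transcript its length, its RPKM, and counts of mapped reads, in total and unique. The authors deposited these counts unscaled. The RPKM deposited by the authors is the count scaled by transcript length and mapped reads, and was rebuilt from the counts within 0.0005. A further 12 columns were not used. Transcript sequences were not analysed here.

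The description words gave the members, and members and lists were chosen with earlier results of these data known. The words for the list of other cuticle-related transcripts were adjusted after the descriptions were seen. Ratios are RPKM ratios with exact conditional binomial intervals. A count of 0 was set to 3 reads, per library, to give a finite ratio. The additive model was fitted with edgeR 4.0.16 in R 4.3.3 (TMM scaling, at least 1 CPM in at least 2 libraries, Benjamini-Hochberg adjustment over all transcripts fitted), and with DESeq2 1.42.0 as an alternative, and was tested on simulated data. Tables were handled with Python 3.11.15, pandas 2.3.3 and scipy 1.17.1. Singly named were the 4 most abundant transcripts of each family, and in each comparison the 3 called members with the largest ratio in each direction and at least 10 reads in both libraries. Locus 5587, Locus 6336, Locus 21375, Locus 21405, Locus 23247, Locus 28708, Locus 36328, Locus 42402, the 13 transcripts with reads chiefly in pollinated gall flowers, and the transcripts of the other lists were named after their values were seen. Alternatives were uniquely mapped reads, Kal's Z-test as in the study, edgeR's exact test with an assumed coefficient of variation of 0.4, other fold and RPKM minimums, other scalings, removal of the length trend, and families without their most abundant transcript.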

Additional observations from a re-analysis of the deposited data

Results flagged for a closer look

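The gall to seed ratio pointed in opposite directions at the 2 stages, or the pollinated to receptive ratio in opposite directions in the 2 flower types, for 9 of the 35 transcripts above an RPKM of 20. In each case both intervals excluded a ratio of 1 and at least 1 of the ratios was 2-fold or more. The same held for 16.0% of all 10434 transcripts above the minimum. The value given is the log2 ratio of receptive gall over receptive seed flowers minus the log2 ratio of pollinated gall over pollinated seed flowers. With 1 library per flower type and stage, none of these differences was tested.

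The WAX2-like Locus 795 had the largest difference, 3.65, being lower in pollinated than receptive gall flowers (log2 ratio -0.26) and higher in pollinated than receptive seed flowers (3.39). For the GDSL esterase/lipase Locus 6391 the difference was 3.01, with a gall over seed log2 ratio of -0.57 in pollinated and 2.43 in receptive flowers. The same reversal between stages was seen in Locus 4990 (difference 2.10), Locus 5587 (1.92), Locus 21405 (1.75), Locus 6336 (1.75) and Locus 23247 (1.18), all GDSL esterase/lipases. Under TMM scaling Locus 23247 and Locus 6336 no longer met these conditions, the 9 became 8 and Locus 18578 joined them. Locus 23247 dropped out under median-ratio scaling as well, its log2 ratio in pollinated flowers being only -0.07. The lipid transfer protein Locus 32413 had a difference of 1.60, with log2 ratios of -0.78 in pollinated and 0.82 in receptive flowers. Locus 4509, of the inhibitor and lipid transfer superfamily, had the opposite sign, -2.02, with log2 ratios of 0.44 in pollinated and -1.58 in receptive flowers.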

How the results depend on the processing

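No paired analysis was possible because each flower type and stage had 1 library. Counting error was small for abundant transcripts, while 38 of the 98 members had under 10 reads in at least 1 library. Of 40 ratios of singly named members, 40 kept their call with uniquely mapped reads, 38 with TMM or median-ratio scaling, 34 with the length trend removed, 33 with Kal's Z-test and 3 with edgeR's exact test at an assumed coefficient of variation of 0.4. Where a value moved, the cause was not tested.

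In receptive gall against receptive seed flowers, 16 members were higher and 4 lower. A ratio of at least 4 left 3 and 1, and the exact test 1 and 0. An RPKM above 5 gave 17 higher and 10 lower and no minimum 23 and 14. The median log2 ratio of 0.93 became 1.15 with TMM and with median-ratio scaling, 1.09 without the length trend, 0.29 above an RPKM of 5 and 0.43 with no minimum. The ratio of summed reads over all families, 1.72, became 2.01 with TMM, 2.00 with median-ratio scaling and 1.45 without the most abundant transcript of each family. That of lipid transfer proteins turned to 1.12 and 1.11 with the 2 scalings and became 0.472 without its most abundant transcript.

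In pollinated gall against pollinated seed flowers, 7 were higher and 5 lower. A ratio of at least 1.5 gave 14 and 11, no minimum 31 and 14, and an RPKM above 5 gave 9 lower. A ratio of at least 4 and the exact test gave 0 and 0. The median of 0.10 became 0.29 with TMM, 0.23 with median-ratio scaling, 0.19 without the length trend, 0.25 with no minimum, and turned to -0.0557 above an RPKM of 5 and -0.0197 at a mean above 20. The summed ratio of 1.11 became 1.26 with TMM, 1.21 with median-ratio scaling and 0.998 without the most abundant transcripts, and that of lipid transfer proteins turned to 1.14 and 1.09 with the 2 scalings.

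In pollinated against receptive gall flowers, 4 were higher and 4 lower. The exact test and a ratio of at least 4 gave 0 and 0, no minimum 26 and 13. Removal of the length trend gave 2 higher, an RPKM above 5 gave 7 higher, Kal's Z-test 8 lower and a ratio of at least 1.5 gave 17 lower. The median of -0.58 became -0.33 above an RPKM of 5 and turned to 0.0576 with no minimum. The summed ratio of 0.776 became 0.764 with TMM, 0.749 with median-ratio scaling and 0.845 without the most abundant transcripts, which turned lipid transfer proteins to 1.05 and WAX2-like proteins to 1.13.

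In pollinated against receptive seed flowers, 6 were higher and 3 lower. The exact test gave 2 and 0, a ratio of at least 4 gave 3 and 0, a ratio of at least 1.5 and an RPKM above 5 each gave 10 and 5, and no minimum 14 and 7. Removal of the length trend, and ratios relative to the same length class, an alternative chosen after the data were seen, each left 1 lower. The summed ratio of 1.20 became 1.22 with TMM, 1.24 with median-ratio scaling and 1.23 without the most abundant transcripts. That of 3-ketoacyl-CoA synthases turned to 0.901 with the beta-ketoacyl-CoA synthase family transcripts, also chosen after the data were seen, and that of fatty acyl-CoA reductases to 1.16 at 500 bp or more.

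In the additive model, no member passed an adjusted p of 0.05 in edgeR. DESeq2 called 7 higher and 1 lower in gall flowers and 1 higher after pollination. A filter of at least 10 reads over the 4 libraries called 13 higher and 1 lower in gall flowers and 12 higher after pollination, beside 8.29%, 0.473% and 6.68% of all transcripts. Of the 13, 5 had reads in pollinated gall flowers alone, as had 6 of the 12, so these passed the filter through the library in which they are high, and the counts say nothing about the members.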
